A study of Mus musculus with 21 samples.

Results

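The comparison described here set formative mouse embryonic stem cells with CD alleles of MLL3 and MLL4 (dCD, genotype MLL3CD_MLL4CD, line R1) against formative wild-type cells (WT, line R1), in both cases 63 h after LIF and 2i were withdrawn. CD stands for catalytic dead. What was compared is H3K4me1, monomethylation of lysine 4 of histone H3, measured by CUT&RUN. The measure was the dCD level minus the WT level in each region of 1 table, centred on its median, and it could be taken in 186824 of 186826 regions. The study holds 21 libraries, with 2 H3K4me1 libraries in each of 8 groups. The other groups used below are naive dCD and naive WT cells (line R1, kept in LIF and 2i), formative DKO cells (MLL3KO_MLL4KO), and cells of an MLL3-null line with floxed MLL4 (MLL3KO_MLL4fl, here the floxed line), in the formative and naive states. DKO and floxed cells carry no line label, both lack MLL3, and their formative cells were also taken at 63 h. The labels do not say how many clones stand behind a genotype.

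MLL3 (gene Kmt2c) and MLL4 (gene Kmt2d) are SET domain methyltransferases that place much of the H3K4me1 found at enhancers. They work in large complexes with WDR5, RBBP5, ASH2L and DPY30, and also bring the H3K27 demethylase KDM6A and, indirectly, the acetyltransferase p300 to enhancers, so a catalytically dead protein and a missing protein are different losses. The formative state lies between naive pluripotency and lineage priming. On leaving LIF and 2i, cells shut naive genes such as Klf4 and Tfcp2l1, switch on Fgf5, Otx2 and Pou3f1, and set up a different group of enhancers.

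Each group's libraries are in 1 deposited column, so no spread between replicates exists here, no difference has a test, and all are described by size. Levels are log2 values that depend on region width, so they were compared only within a region, and normalized reads were worked back from them to show amounts. The median region had 29.6 normalized reads in formative dCD and 37.6 in formative WT cells. As deposited, the median difference was −0.29, and it was taken off unless stated, so "lower" and "higher" mean relative to the median region. The labels name 2 catalogue numbers for the H3K4me1 antibody, ab8895 and ab4729, and ab4729 is known as an H3K27ac antibody. The mark is named as labelled.

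Lower and higher regions differed in how many CpG dinucleotides they held, and 8 regions described below are shown for their sequence. Each line gives the central 200 bp of a region on the plus strand of GRCm38 (the mm10 assembly), with CpG in capitals. The first 4 had less H3K4me1 in formative dCD cells. They are 2 of the 3 lowest intergenic regions with at least 32 mean reads, near Gm5916 (chr9:36006632-36006831) and Slc6a15 (chr10:103343347-103343546), a region upstream of Fgf5 (chr5:98246428-98246627) and a region upstream of Pou5f1 (chr17:35490381-35490580).
Gm5916: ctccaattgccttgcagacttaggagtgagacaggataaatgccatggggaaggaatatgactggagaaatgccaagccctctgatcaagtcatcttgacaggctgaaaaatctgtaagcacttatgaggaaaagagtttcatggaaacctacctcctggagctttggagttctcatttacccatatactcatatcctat
Slc6a15: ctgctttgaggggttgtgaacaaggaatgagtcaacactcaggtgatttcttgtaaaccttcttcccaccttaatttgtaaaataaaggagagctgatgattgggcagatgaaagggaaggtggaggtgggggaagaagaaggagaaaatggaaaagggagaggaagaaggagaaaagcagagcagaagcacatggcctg
Fgf5: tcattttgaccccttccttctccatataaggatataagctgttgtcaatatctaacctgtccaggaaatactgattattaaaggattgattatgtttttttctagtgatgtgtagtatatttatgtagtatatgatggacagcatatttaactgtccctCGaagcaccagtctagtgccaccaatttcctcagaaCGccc
Pou5f1: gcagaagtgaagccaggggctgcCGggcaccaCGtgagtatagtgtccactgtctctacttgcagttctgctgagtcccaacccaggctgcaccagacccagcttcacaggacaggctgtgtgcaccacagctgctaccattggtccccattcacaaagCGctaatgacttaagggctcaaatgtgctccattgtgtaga
The other 4 had more H3K4me1 in formative dCD cells. They are, at the same read limit, the highest intergenic region, near Pja2 (chr17:64242717-64242916), one of the highest exonic regions, in coding sequence of Nfil3 (chr13:52967631-52967830), a coding exon of Klf4 (chr4:55530324-55530523) and the Ginm1 promoter (chr10:7781465-7781664).
Pja2: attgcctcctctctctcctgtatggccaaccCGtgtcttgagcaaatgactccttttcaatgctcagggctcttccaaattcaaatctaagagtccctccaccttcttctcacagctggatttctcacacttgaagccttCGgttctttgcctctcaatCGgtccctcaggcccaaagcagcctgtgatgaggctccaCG
Nfil3: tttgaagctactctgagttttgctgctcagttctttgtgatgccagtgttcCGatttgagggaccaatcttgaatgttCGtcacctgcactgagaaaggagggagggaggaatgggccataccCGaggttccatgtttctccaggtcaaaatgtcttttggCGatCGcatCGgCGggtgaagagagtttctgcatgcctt
Klf4: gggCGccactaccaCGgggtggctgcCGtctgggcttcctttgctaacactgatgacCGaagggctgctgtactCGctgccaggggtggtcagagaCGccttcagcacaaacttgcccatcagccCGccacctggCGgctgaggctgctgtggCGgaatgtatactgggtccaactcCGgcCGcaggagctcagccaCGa
Ginm1: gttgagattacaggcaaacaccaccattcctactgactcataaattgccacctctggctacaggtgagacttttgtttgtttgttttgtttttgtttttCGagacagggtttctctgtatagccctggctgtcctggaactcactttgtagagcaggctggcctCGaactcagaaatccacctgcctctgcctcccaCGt
The windows of the first group held 0, 0, 2 and 3 CpGs, and those of the second 4, 7, 12 and 3, so the Pou5f1 and Ginm1 windows did not differ. The Klf4 region was picked as the most CpG-rich of its locus, so its count follows from that choice. The Fgf5 and Pou5f1 regions were picked as the lowest of their loci by difference. Over all distal regions, the central window held a median of 1 CpG where H3K4me1 was at least 2-fold lower and 3 where it was at least 2-fold higher.

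Of the 186824 regions, 22691 were at least 2-fold lower in formative dCD than in WT cells (12.1%) and 14412 at least 2-fold higher (7.71%). The median lower region had 12.7 reads in dCD and 41.6 in WT cells, and the median higher region had 51.1 in dCD and 25.8 in WT. Without centring, 37516 regions were lower (20.1%) and 4839 higher (2.59%). The balance between directions depends on the scaling and on low-read regions. Lower regions made up 61.2% of those past 2-fold when centred, 88.6% as deposited, 56.5% after quantile scaling and 47.3% after centring each group's levels separately. Among regions of at least 32 mean reads, with the centring kept, they made up 46.9% (7678 lower and 8697 higher). At 3-fold over all regions the lower side was larger, with 5875 regions lower and 1211 higher. Regions just inside and just outside the 2-fold limit differ by less than 0.001 in log2, so the limit marks no gap.

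Promoters and distal regions went apart. Among 10671 regions within 1 kb of a start site, the median difference was 0.75, with 3077 higher (28.8%) and 198 lower (1.86%), and the median promoter region had 84.9 reads in dCD and 61.6 in WT cells. Among 176153 distal regions, 22493 were lower (12.8%) and 11335 higher (6.43%). Their median of −0.04 changed sign with the scaling, to 0.07 after centring each group's levels. Exonic regions lay between (median 0.50), intronic regions at 0.02, and intergenic regions at −0.18, with 16.9% lower. The gradient ran with distance, at 0.39 between 1 and 5 kb, 0.08 between 5 and 10 kb, −0.03 between 10 and 50 kb and −0.18 between 50 and 100 kb. Beyond 100 kb the median was −0.49 and 28.3% of 30034 regions were lower. With only regions of at least 32 mean reads that last class was at −0.37, with 22.2% lower. In naive cells the dCD minus WT median beyond 100 kb was −0.10, and at promoters it was 0.70.

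Within the distal class, H3K4me1 in dCD cells followed CpG density step by step. Regions with up to 4 CpGs per kb had a median difference of −0.89, and 44.9% of these 9562 regions were at least 2-fold lower. Their median reads were 12.6 in dCD and 26.5 in WT cells. The medians in the next classes were −0.50 (4 to 8 per kb), −0.21 (8 to 12), 0.14 (12 to 20) and 0.63 (20 to 40). Above 40 CpGs per kb the median was 0.92, and of 1370 regions 540 were higher (39.4%) and 0 lower. Promoters showed the same order, from −0.86 in the 76 promoters with up to 4 CpGs per kb to 1.03 in the 1529 above 40, of which 53.9% were higher. The correlation of the difference with CpG density across the 186824 regions was r = 0.49, against 0.43 for naive dCD minus WT and 0.46 for formative DKO minus the floxed line. These are descriptions over regions that share libraries and base composition. CpG density also moves with read depth here, since regions under 16 mean reads had a median of −0.50 and 8.01 CpGs per kb, and the most deeply read class 0.18 and 16.02 per kb. The parts of depth and base composition in the difference were not tested.

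**Figure D1:**
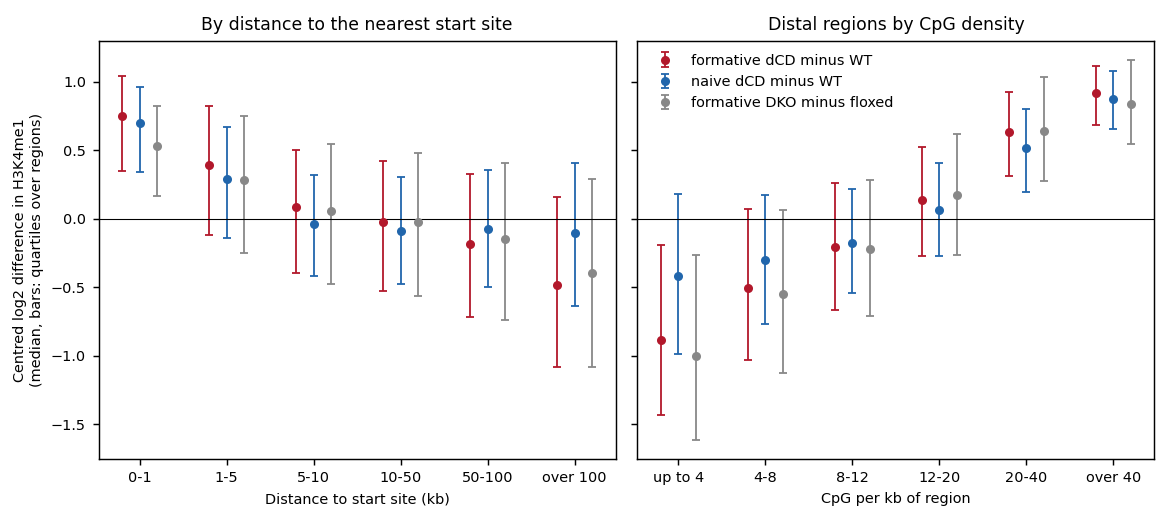
Centred log2 differences in H3K4me1 (y axis, points are medians and bars quartiles over regions) by distance to the nearest start site in kb (left) and, for distal regions, by CpG per kb (right), for formative dCD minus WT, naive dCD minus WT and formative DKO minus floxed. The formative dCD median runs from 0.75 at promoters to −0.49 beyond 100 kb, where the naive dCD median stays at −0.10, and from −0.89 in the CpG-poorest to 0.92 in the CpG-richest distal class.

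Short sequence words were counted in the central 400 bp of each region, on both strands, as a description of the sequences only. The octamer ATTTGCAT, the word bound by POU factors such as OCT4, occurred in 5.33% of lower distal regions and 1.76% of higher ones, with 3.02% in all distal regions. Among regions of 4 to 8 CpGs per kb, where base composition is closer, it occurred in 5.54% of lower, 2.15% of higher and 4.00% of all. Among those of 12 to 20 per kb the shares were 3.91%, 1.83% and 2.40%. The GC box GGGCGG, the word of SP and KLF factors, went the other way with 3.39% of lower, 12.1% of higher and 8.34% of all distal regions. At 12 to 20 CpGs per kb the GC box shares were 7.05%, 10.3% and 10.8%, so higher regions were then close to all regions. At 4 to 8 per kb they were 2.73%, 2.76% and 3.47%, so lower and higher regions were close there. The SOX word ACAATGG was in 7.22% of lower and 5.90% of higher distal regions, with 6.27% in all. At like density the order turned, with 7.67% of lower and 8.13% of higher regions at 4 to 8 CpGs per kb, and 4.90% and 6.13% at 12 to 20. The AP-1 word TGACTCA was in 8.27% of lower and 6.19% of higher, with 7.60% in all. At like density lower and higher regions were closer, with 8.26% and 7.75% at 4 to 8 CpGs per kb and 7.62% and 7.02% at 12 to 20. The ETS word CCGGAAGT was in 0.23% of lower and 0.89% of higher, with 0.50% in all. At like density its shares in lower and higher regions were 0.19% and 0.23% at 4 to 8 CpGs per kb, and 0.58% and 1.12% at 12 to 20. The grainyhead word AACCGGTT was in 0.14% of lower and 0.11% of higher, with 0.13% in all. At like density its shares were 0.19% and 0% at 4 to 8 per kb, and 0.25% and 0.13% at 12 to 20. No word in this list contains another.

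Regions that change on leaving the naive state were chosen in the floxed line, whose libraries take no part in the dCD and WT columns. Formative floxed cells had at least 2-fold more H3K4me1 than naive floxed cells in 19851 regions (10.6% of all), called gained, and at least 2-fold less in 16645 (8.91%), called lost. In the gained regions the median difference between formative dCD and WT was −0.84, with 7996 lower (40.3%) and 63 higher (0.317%). The median gained region had 17.7 reads in formative dCD and 37.1 in formative WT cells. In the lost regions the median was 0.34, with 370 lower (2.22%) and 2139 higher (12.9%), and the median reads were 22.5 in dCD and 21.6 in WT. The 95632 regions within 0.5 of no change in the floxed line had a median of 0.09. Relative to the median region, H3K4me1 in formative dCD cells thus lay below WT where the floxed line gained it and above WT where the floxed line lost it, and the size rose with the size of that change. The 2801 regions gained more than 4-fold had a median of −1.14, with 59.3% lower. The 1117 lost more than 4-fold had a median of 0.52.

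Naive cells showed the opposite order. In the gained regions naive dCD minus naive WT was 0.29, and in the lost regions −0.47. The difference between the states was not tested, and no library is shared between the naive and the formative comparison. Gained regions were poor in CpG (8.46 per kb against 12.9 in stable regions), so the classes were also read at like density. With up to 8 CpGs per kb the formative dCD medians were −1.10 in gained, 0.21 in lost and −0.51 in stable regions. Between 8 and 12 per kb they were −0.75, 0.28 and −0.19, and between 12 and 20 per kb −0.46, 0.42 and 0.17. Above 20 per kb gained regions were at 0.19, while lost and stable regions were close, at 0.76 and 0.77. With only regions of at least 32 mean reads the gained median was −0.72. As deposited, the same gained regions were at −1.13 and the same lost regions at 0.06, so lost regions were then close to WT.

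**Figure D2:**
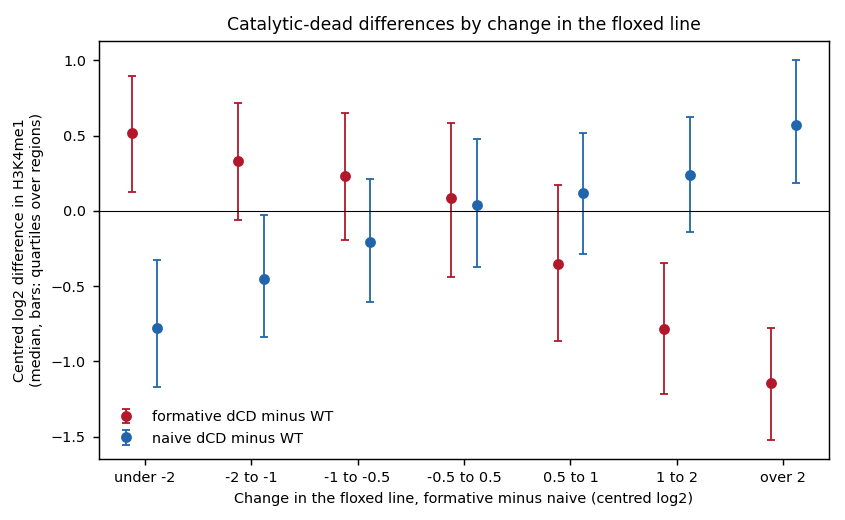
Centred log2 differences in H3K4me1 (y axis, points are medians and bars quartiles over regions) for formative dCD minus WT and naive dCD minus WT, by the formative minus naive change in the floxed line (x axis, centred log2). Formative dCD medians run from 0.52 in regions the floxed line lost most to −1.14 in those it gained most, and naive dCD medians run the other way.

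Named formative genes showed what lay behind these numbers. At Fgf5, a growth factor gene and the usual marker of the formative state, the region 7.7 kb upstream of the start site (chr5:98244707-98248348, mm10) had 57.4 reads in formative dCD and 168.6 in formative WT cells, a centred difference of −1.23. Naive cells had 38.6 in dCD and 48.3 in WT there, so the difference was larger in the formative state. The block 29 kb downstream (chr5:98280324-98286220) had 144.5 reads in dCD and 251.3 in WT cells, a difference of −0.48. The region over the Fgf5 promoter, 1.4 kb upstream, had 268.5 in dCD and 267.6 in WT (0.29). Of 13 regions at the locus, 7 were below 0 and 2 at least 2-fold lower, and the locus mean was −0.23. The formative value lay below the naive one in 11 of the 13.

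Pou3f1, which encodes the POU factor OCT6, had values below 0 along its whole upstream side. Summed over its 10 regions, reads were 1554 in formative dCD and 2426 in formative WT cells, and 954 in naive dCD and 1218 in naive WT. In the upstream block at chr4:124620138-124627143 dCD had 142.7 reads and WT 280.6, a difference of −0.64. The largest block, 6.9 kb upstream (chr4:124643798-124657725), had 458.1 in dCD and 682.5 in WT (−0.25). The lowest region, 27.8 kb upstream, had 29.4 in dCD and 71.4 in WT (−0.97). In 9 of 10 regions the difference was below 0, although none reached 2-fold, and the locus mean of −0.58 fell just short of the 1.5-fold limit. The downstream block 7.5 kb from the start site was the exception, with 359.3 reads in dCD and 372.7 in WT (0.24).

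Otx2, the homeobox factor of the formative and anterior state, split by position. Its start region and the neighbouring block 9.2 kb away had more H3K4me1 in dCD, with 757.8 reads in dCD and 560.6 in WT (0.69) and 374.4 in dCD and 287.1 in WT (0.66). The distal block 22.8 kb away had less, with 43.0 in dCD and 93.8 in WT (−0.79). Naive cells had nearly the same pattern there, at 0.77, 0.61 and −0.59, so at Otx2 both states showed it. Pou5f1, which encodes OCT4, was similar. The region 15.6 kb upstream (chr17:35489400-35491560) had 43.2 reads in dCD and 108.8 in WT (−1.03, and −0.73 in naive cells). The region nearest the Pou5f1 start site had 132.7 in dCD and 98.7 in WT (0.71, and 0.94 in naive cells). An intronic region 1163 bp from the Pou5f1 start site had 52.1 in dCD and 25.5 in WT (1.31, and 1.45 in naive cells). At Sox2, its partner, the block 29.4 kb downstream (chr3:34678008-34680808) had 48.7 reads in dCD and 110.1 in WT (−0.87), while the large block downstream of the start site (chr3:34653947-34676580) differed by 0.03.

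Tfcp2l1, a naive transcription factor gene, had a locus mean of 0.39 over 23 regions in formative dCD minus WT and −0.39 in naive dCD minus WT. As deposited the formative mean was 0.10. Summed reads were 1019 in formative dCD and 1039 in formative WT cells, and 1615 in naive dCD and 2318 in naive WT. In 19 of its 23 regions the formative value exceeded the naive one. The highest, 12.8 kb upstream, had 27.3 reads in formative dCD and 12.4 in formative WT (1.40), against 17.6 in naive dCD and 31.98 in naive WT. Klf4 had a mean of 0.16 over 15 regions, with values from −1.41 to 1.05. Its coding exon printed above had 139.2 reads in dCD and 81.8 in WT (1.04), and the block 12.2 kb downstream had 30.0 in dCD and 85.3 in WT (−1.18). The genes of both enzymes were read as well. The Kmt2c locus had a mean of −0.01 over 11 regions and the Kmt2d locus 0.80 over 4, all of them above 0. These values do not check the alleles.

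**Figure D3:**
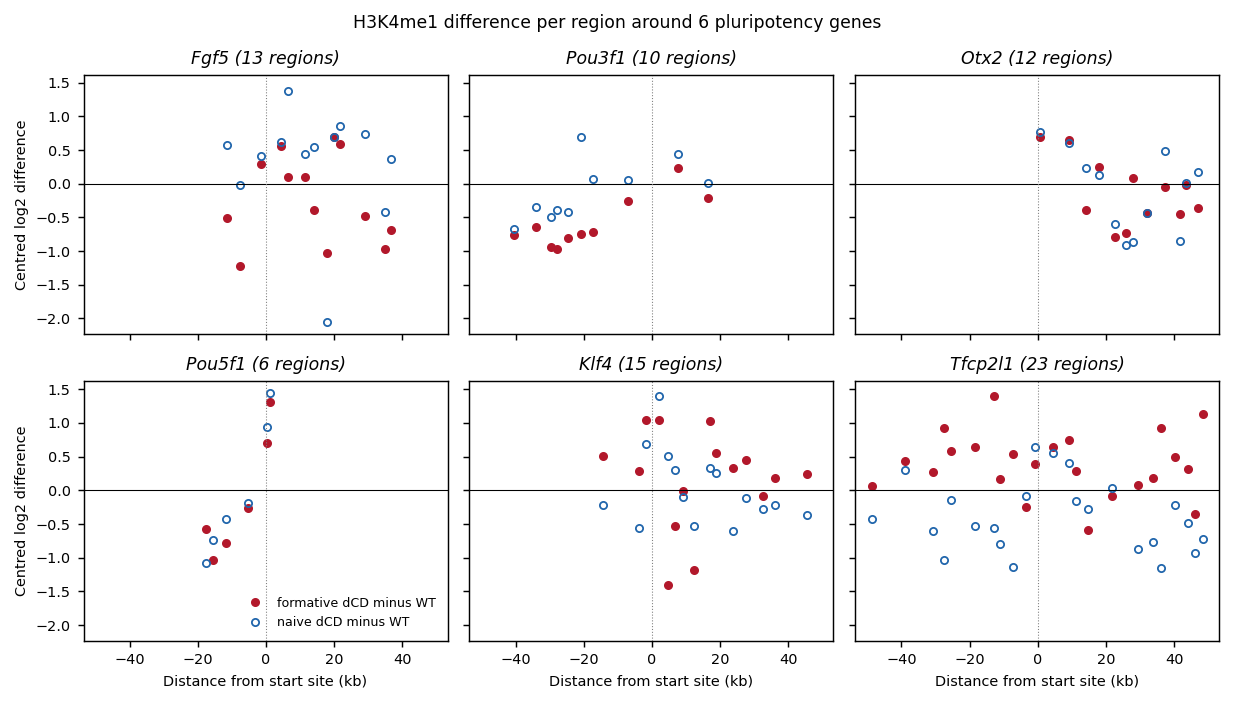
Centred log2 difference in H3K4me1 of each region (y axis) against its distance from the start site in kb (x axis, negative upstream) at 6 genes, for formative dCD minus WT (filled) and naive dCD minus WT (open). At Pou3f1 9 of 10 formative values lie below 0, at Otx2 and Pou5f1 values are above 0 near the start site, and at Tfcp2l1 most formative values lie above the naive ones.

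Over genes, a locus was the mean over the regions that lie within 50 kb of a gene's start site and have it as their nearest gene, and it was counted at 1.5-fold. Of 21535 loci, 1854 were lower in formative dCD than in WT cells (8.61%) and 4184 higher (19.4%), and the median locus was at 0.18, with 7597 loci below 0. The formative list had a median of −0.24, with 4 of 26 loci lower, 1 higher and 21 below 0. The lower ones included Sox3 (−1.10), a neural and pluripotency SOX gene, Sox11 (−0.78) and the kinase gene Pim2 (−0.71). Of the 4 lower loci 3 lie on chromosome X, whose median was −0.40, Sox3 and Pim2 among them. With each chromosome centred, Sox3 (−0.70) was the only one of these 3 still past the limit, and Pim2 was at −0.31. Pou3f1, on chromosome 4, then passed the limit, so that 3 loci of the list were lower. Zic5 was the higher one (0.84). Wnt8a (−0.55), Grhl2 (−0.47), Fgf15 (−0.45) and Etv5 (−0.42) stayed inside the limit. As deposited, 11 of the 26 were lower and 0 higher. The naive list had a median of −0.04, with Fgf4 (−1.08) and the single region of Dppa5a (−0.60) lower of 24 and none higher. The core list of 12 had a median of −0.12, and only Trim28, a corepressor gene, passed (0.77).

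The state label was checked on the same lists. In dCD, 4 of 26 formative loci were at least 1.5-fold higher in formative than in naive cells and 1 of 24 naive loci lower. In WT, 11 formative loci were higher and 10 naive loci lower. No share over all loci was taken for these counts, so they have no background to be read against. Of 12 fibroblast loci 0 were higher in formative dCD and 5 in formative WT cells (medians of 0.10 and 0.25), so the smaller change in dCD was also seen in a list of another cell type. The formative list's median was 0.27 in dCD and 0.45 in WT, and the naive list's −0.27 in dCD and −0.44 in WT. In formative dCD minus WT the fibroblast list, which would mark feeder cells, had a median of −0.09, with Col3a1 (−0.93) and the single region of Fap (−0.79) lower of 12 and none higher. Its part in the result was not tested.

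Genes of FGF, WNT and TGF-beta signalling had the lowest list median, −0.32, with 17 of 22 below 0 and 3 lower, against 8.61% lower of all loci. With each chromosome centred the median was −0.22 with 2 lower, and the formative list was then lowest at −0.23. These were Lefty1 (−0.80), a Nodal inhibitor, and the FGF feedback inhibitors Spry4 (−0.77) and Spry2 (−0.60), with 4 of 17 and 5 of 14 regions at least 2-fold lower at the Sprouty genes. In naive dCD they were at −1.09, −0.49 and −0.80, so Spry4 stayed inside the limit there. Neural genes went both ways, with 1 lower and 3 higher of 16, close to the 19.4% higher of all loci, among them Neurod1 (−0.63), Neurog2 (0.71) and Zic1 (0.70). Of 16 streak and mesoderm genes Lhx1 (1.10, 1 region) and Gata4 (0.64) were higher. None of 13 endoderm loci passed, and Afp (1 region) was at −0.58. The placental regulator Ascl2 (−0.66) was the single trophoblast locus that passed, with 4 of 7 regions lower, and Ddx4, a germ cell helicase gene, the single germline one (1.01). In the list of genes of early 2-cell embryos Usp17lc (−1.59), Tcstv1 (−1.19) and Zscan4f (−0.69, 1 region) were lower and Dux higher (1.16) of 9. These are multicopy families, where reads may be shared between copies.

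At the other end, 2 lists stood furthest above the 19.4% of all loci that were higher. The median over all promoter regions was 0.75, and the part of promoter regions and CpG density in these lists was not tested. In the list of mitochondrial respiration, whose loci hold 1 to 7 regions each, 12 of 14 loci were higher and none lower, with a median of 0.76. Among them were the complex III genes Uqcrc1 (1.27) and Uqcrc2 (1.07, 1 region), and Ndufb8 (1.21, 1 region) and Ndufa4 (1.17). In the list of H3K4 methylation 10 of 19 were higher and none lower, with a median of 0.61. They included the SET1 enzyme genes Setd1a (1.31) and Setd1b (0.65), Men1 (1.24, 1 region) and the MLL family gene Kmt2b (1.05). The shared subunit gene Dpy30 (0.83), the MLL3/4 complex gene Paxip1 (0.83) and the demethylase gene Kdm5c (0.73) were also higher. Kdm6a, whose product sits in the MLL3/4 complex, was at −0.24. Among 14 housekeeping loci 4 were higher, Sdha (0.92), Tbp (0.72) and Polr2a (0.67) among them, and none lower. Among 18 glycolysis loci Aldoa (0.76), Pkm (0.71), Hk1 (0.70) and Tpi1 (0.60, 1 region) were higher and none lower, a count near the share of all loci. As deposited 0 of them were higher. As deposited the medians of these 4 lists were 0.48, 0.33, 0.02 and −0.08. In the smaller lists, Hdac1 (0.62) and Brd9 (1.08, 1 region) of 15 genes of H3K27 acetylation and Mbd3 (0.83) of 11 of DNA methylation were higher, below the share of all loci, and none lower. Of 18 imprinted loci Snrpn was lower (−1.14, 8 of 12 regions at least 2-fold lower, and 0.06 in naive cells), and Impact (0.94) and Grb10 (0.61) were higher, again below the share of all loci.

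**Figure D4:**
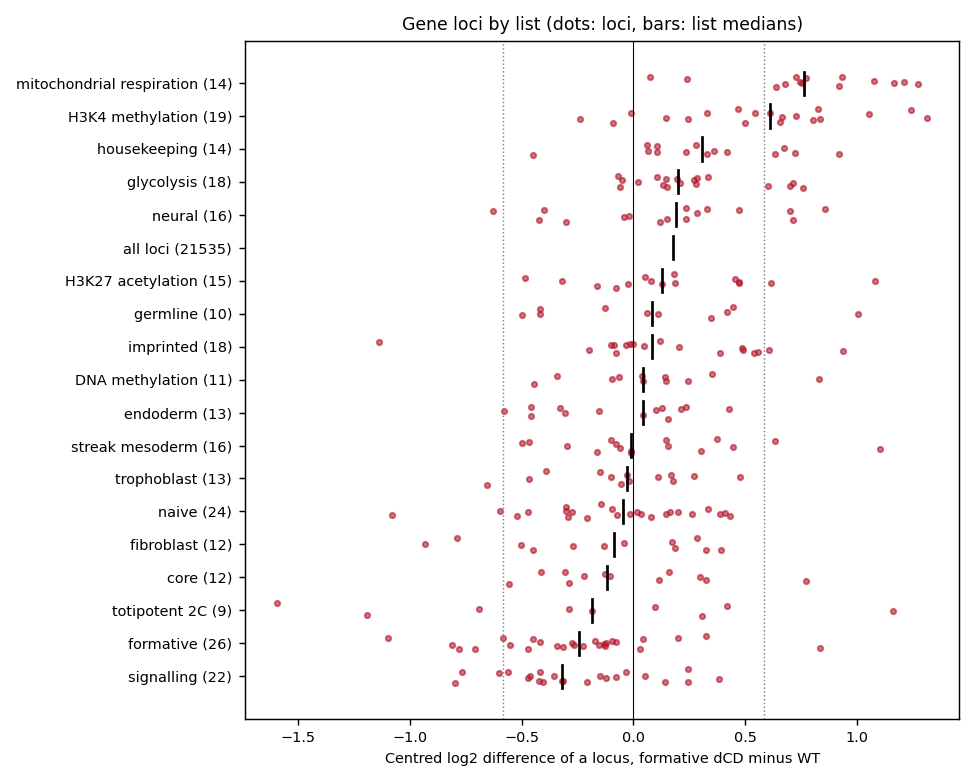
Centred log2 difference of each gene locus in formative dCD minus WT (x axis) by list (rows, number of loci in brackets), with black bars for list medians and dotted lines at 1.5-fold. The mitochondrial respiration and H3K4 methylation lists have medians of 0.76 and 0.61, the formative and signalling lists −0.24 and −0.32, and the median of all loci is 0.18.

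Gene families and single loci were read without a fixed list and were chosen after values were seen. Of all loci 8.61% were lower and 19.4% higher. Olfactory receptor loci had a median of −0.51, with 171 of 363 lower (47.1%) and 67 higher (18.5%). Vomeronasal receptor loci had a median of −0.41, with 64 of 140 lower (45.7%) and 24 higher (17.1%). The higher shares were near that of all loci. Few regions stand behind each locus, with 632 regions in the olfactory and 306 in the vomeronasal family. Both families are CpG-poor (7.57 and 6.68 CpGs per kb). Clustered protocadherin loci, CpG-rich at 29.3 per kb, had a median of 1.08, with 47 of 52 higher (90.4%) and 0 lower, over 66 regions. Copies within these families are alike, and reads may be shared between them. Loci of Zfp zinc finger genes had a median of 0.43, with 137 of 383 higher (35.8%) and 9 lower (2.35%). Hox loci had a median of 0.40, with 11 of 31 higher (35.5%) and 3 lower (9.68%). Such shares were not particular to these families. Proteasome (42.1%), mitochondrial ribosome (42.6%) and ribosomal protein loci (35.4%) were also often higher, with 0 lower in each. Potassium channel (13.3%) and collagen loci (6.98%) were higher less often than all loci. Among the 11008 loci with at least 5 regions, the lowest were Samd9l (−1.74), an antiviral gene, Csn3, a casein gene (−1.71), and Nyx on X (−1.68), and the highest were Zfp110 (1.60), Mdn1, a ribosome assembly ATPase gene (1.35), and Tmem209 (1.34). All 5 regions of Zfp110 were at least 2-fold higher.

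Single regions at the ends of each class were taken among those with at least 32 mean reads. The lowest intergenic one, far from its nearest gene Gm5916 (chr9:36005437-36008026), had 7.89 reads in formative dCD and 95.8 in formative WT cells (−3.11). It had 16.5 in naive dCD and 21.5 in naive WT (−0.07), and 13.8 in formative DKO and 75.3 in floxed cells (−2.21). The next, near the olfactory gene Olfr24 and the amino acid transporter gene Slc6a15, were at −2.95 and −2.93 and were low in naive dCD too, at −1.85 and −1.58. The lowest promoter region, of the keratin-associated gene Krtap5-5 (chr7:142228802-142232844), had 18.8 reads in dCD and 103.5 in WT (−1.99), and the Gm4146 promoter followed at −1.93. The highest promoter regions, of Gm5801, Terb2 and Ginm1, were at 2.05, 2.04 and 2.02. Exonic and intronic regions are named here by the nearest start site, so the named gene need not hold the exon or intron. Among exonic regions those nearest Mmadhc (−1.84), Slc9b1 (−1.74) and D830005E20Rik (−1.61) were lowest. The one nearest Nfkbiz, the gene of a nuclear inhibitor of NF-kappaB, was highest, with 77.8 reads in dCD and 22.9 in WT (2.04). It lies upstream of that gene's start site. The region nearest Rnu7 followed (1.99), and that of Nfil3, a bZIP repressor gene, had 116.5 in dCD and 35.5 in WT (1.94). Among intronic regions those nearest Mir3106 (−2.58) and Iqcm (−2.55), both on chromosome 8, were lowest, then 1700031L13Rik (−2.45). The highest was nearest Iars, an isoleucyl-tRNA synthetase gene, with 36.9 reads in dCD and 5.83 in WT (2.65, and −0.03 in naive cells). Those nearest Zfp955a (2.49) and Uqcrc1 (2.24) came next. The highest intergenic region, near Pja2, had 46.3 in dCD and 8.58 in WT (2.58), and those near 2410018L13Rik and Iqca were at 2.22 and 2.08.

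Formative DKO minus the floxed line, which shares no library with dCD minus WT, gave a second reading of the same regions. In DKO cells 25187 regions had at least 2-fold less H3K4me1 (13.5%), and 17162 had at least 2-fold more (9.19%). Of the 22691 regions lower in formative dCD, 13516 were lower in DKO (59.6% of them, and 53.7% of those lower in DKO), 94.8% were below 0 and 67 were at least 2-fold higher. Of the 14412 higher in dCD, 5760 were higher in DKO (39.97% of them, and 33.6% of those higher in DKO), and 36 were lower. Across regions the correlation was r = 0.73. The median of the dCD-lower regions was −1.15 in DKO, and that of the dCD-higher regions 0.88.

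The naive dCD comparison had fewer regions past 2-fold, and the overlap with it was smaller, mainly for lower regions. There 12580 regions were lower (6.73%) and 9953 higher (5.33%). Of the regions lower in formative dCD, 4248 were lower in naive dCD (18.7% of them, 33.8% of those lower there), with a median of −0.36, and 9915 lay within 0.5 of 0. Of the regions higher in formative dCD, 3097 were higher in naive dCD (21.5% of them, 31.1% of those higher there), with a median of 0.68. In DKO the latter share was close, at 33.6%. The correlation across regions was r = 0.36. All 3 comparisons were lower in 2880 regions and higher in 1261. No test compared these shares.

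**Figure D5:**
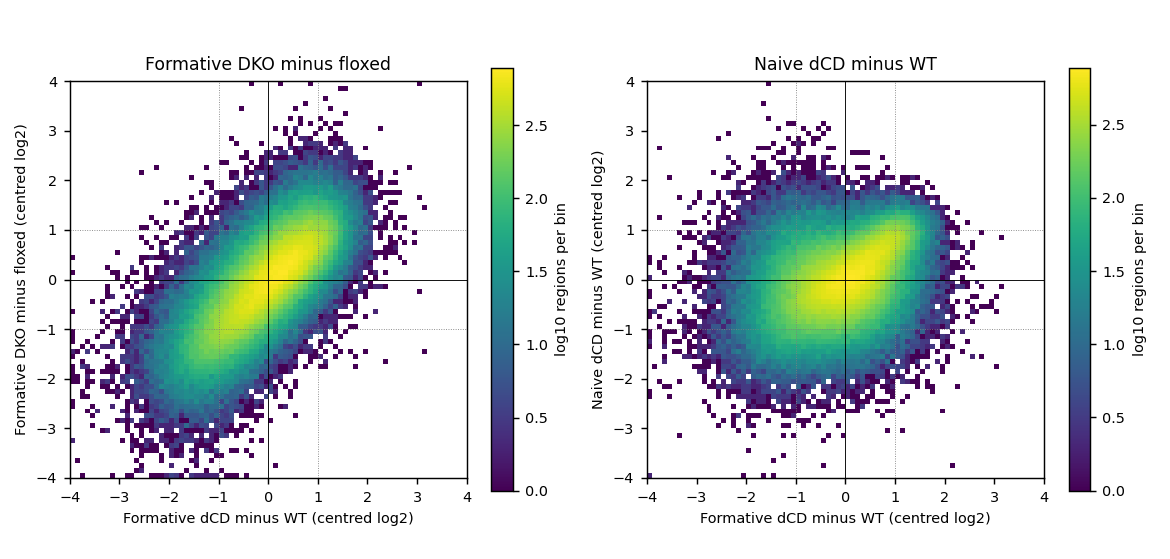
Number of regions (colour, log10 per bin) by centred log2 difference in formative dCD minus WT (x axis) and in formative DKO minus floxed (left, y axis) or naive dCD minus WT (right, y axis), with dotted lines at 2-fold and values past the axes drawn at the edge. The cloud follows the diagonal for DKO (r = 0.73) and is wider for naive dCD (r = 0.36).

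H3K27 acetylation and RNA folds used here exist for DKO, so they show other cells than dCD. In the authors' deposited table, formative DKO minus WT H3K27ac was at least 2-fold lower in 27.8% of all regions and higher in 18.9%. In the regions where H3K4me1 was lower in formative dCD, the shares were 41.4% lower and 14.6% higher, with a median of −0.68. In the regions where it was higher, they were 18.8% lower and 34.0% higher, with a median of 0.43. Across regions the correlation was r = 0.15. At promoters with higher H3K4me1 in dCD the median H3K27ac fold in the authors' deposited table was 0.93, against 0.46 at all promoters.

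RNA of the nearest gene was available for 10830 loci in the authors' deposited table, of which 612 had at least 2-fold less RNA in formative DKO than WT cells (5.65%) and 751 higher (6.93%). Of 364 such genes whose locus had less H3K4me1 in formative dCD, 76 had lower RNA in DKO (20.9%) and 37 higher (10.2%). Of 2197 whose locus had more, 48 had lower RNA (2.18%) and 119 higher (5.42%). Among the dCD-lower loci, the deepest RNA folds in the authors' deposited table were at Mup6 (−4.34), the NLR gene Nlrp9b (−4.20), Trim67 (−3.97, on chromosome 8), the carbonic anhydrase gene Car2 (−3.86), Ppp4r4 (−3.31) and Usp17lc (−3.23). Their loci were at −1.47, −1.21, −0.68, −0.80, −0.94 and −1.59 in formative dCD. The same table lists higher RNA at other dCD-lower loci, led by the annexin gene Anxa1 (4.89), Herc6 (3.73), Scg2 (3.24) and Tex13b (3.20, on X), then Angpt1 (2.60) and Ccn2 (2.53). RNA folds of formative against naive WT cells, from the authors' deposited table, were also read. Loci of 2061 genes with RNA at least 2-fold higher in formative cells had a median of 0.06, with 8.10% lower and 12.0% higher. For 1057 genes with RNA at least 2-fold lower the median was 0.15, with 3.31% lower and 10.4% higher. For 7712 genes within 2-fold it was 0.28, with 2.10% lower and 23.9% higher. Of all loci 8.61% were lower, but 10705 of them had no RNA value, and of these 13.9% were lower.

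By chromosome, the autosomes other than chromosome 8 had medians between −0.08 and 0.12 in formative dCD minus WT. Chromosome X stood at −0.40, with 747 of 2609 regions lower (28.6%), and it held 9.15 CpGs per kb. Its median was −0.10 in naive dCD and −0.45 in formative DKO minus floxed. Chromosome 8 stood at −0.16, and at −0.28 in naive dCD but 0.15 in formative DKO. A difference in chromosome copy number between the lines was not tested. Without chromosomes 8 and X, lower regions made up 59.1% of those past 2-fold, against 61.2% with them.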

How the data were processed

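H3K4me1 was measured by CUT&RUN in 2 libraries per group. The submitters' processing notes name the build mm10 and, without roles or versions, deepTools, DiffBind, SEACR, Bowtie2 and Trim Galore. How the columns were scaled to each other, whether the yeast spike-in was used, and which libraries the regions were called in was not found in the sources used here. The deposited levels are log2 values, 1 column per group. The header abbreviation CKO was read as the floxed line, from its sample descriptions.

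Levels matched the log2 of 1 plus normalized reads times a constant, divided by squared width (offsets of 22.25 in formative and naive WT), which gave reads back. The offset was found in WT and applied to all groups. The distance to the start site is the authors' own deposited score in bp, and region width is a deposited column. The authors' deposited log2 folds for H3K27ac and RNA come from samples outside this series, and are log2 ratios. The deposited p-values of the WT transition were not used, since that comparison shares formative WT cells, and 14 further level columns were not used. All region ends lay within the GRCm38 chromosome lengths, and CpG and words were read from that sequence.

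Each difference was centred on its median, by −0.29 for formative dCD minus WT, −0.29 for naive dCD, −0.13 for DKO and −0.08 for the floxed-line transition. Regions were called at 2-fold and loci at 1.5-fold, with no filter on low values. Promoters were within 1 kb and loci within 50 kb of a start site. The planned test per region could not be run on pooled columns. Named regions were the 3 lowest and 3 highest of each class with at least 32 mean reads and a gene name. Loci past the limit were named up to 4 each way per list, and a few others after their values were seen. The members and lists were chosen with earlier results of these data known, and 1 gene was taken out of the mitochondrial list after values were seen, as a wrong entry. A few named items are not reported here. The calling was tested on simulated data, with changes larger than 2-fold placed only in well-read regions. That run does not test 2-fold calls in regions with few reads. Work was done in Python 3.11.15 with numpy 2.4.6, pandas 2.3.3 and matplotlib 3.10.9.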

Additional observations from a re-analysis of the deposited data

Results flagged for a closer look

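Regions that the floxed line gained or lost on leaving the naive state showed opposite signs in both states of the dCD line. In gained regions the median of dCD minus WT was −0.84 in formative and 0.29 in naive cells. In lost regions it was 0.34 in formative and −0.47 in naive cells. With 1 pooled column per group the difference between the states was not tested.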

How the results depend on the processing

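Of 118 recomputed counts 78 stayed within 1.5 times the value in the report and 40 moved further. As deposited, with gained and lost regions also taken without centring, there were 3885 higher distal regions, 37128 lower distal regions, 1025 lower lost regions, 1716 higher loci, 3669 lower loci, 1809 regions also higher in DKO, 300 regions also higher in naive dCD, 21520 regions also lower in DKO, 10427 regions also lower in naive dCD, 954 higher promoters, 388 lower promoters, 4839 higher regions and 37516 lower regions. At 3-fold there were 1035 higher distal regions, 5829 lower distal regions, 2430 lower gained regions, 67 lower lost regions, 207 regions also higher in DKO, 7 regions also higher in naive dCD, 2387 regions also lower in DKO, 429 regions also lower in naive dCD, 176 higher promoters, 46 lower promoters, 1211 higher regions and 5875 lower regions. With only the 100565 regions of at least 32 mean reads there were 6034 higher distal regions, 7606 lower distal regions, 1803 lower gained regions, 75 lower lost regions, 1114 lower loci, 3616 regions also higher in DKO, 4915 regions also lower in DKO, 1540 regions also lower in naive dCD, 72 lower promoters, 8697 higher regions and 7678 lower regions. With promoters within 2.5 kb there were 5355 higher promoters and 476 lower promoters. With loci within 10 kb there were 6486 higher loci. After centring each group's levels, chosen after seeing the data, there were 4933 regions also higher in naive dCD. Counts fall with a stricter fold or fewer regions by construction. The distal median reversed to 0.070 after centring each group, 0.054 at 32 reads and 0.017 after quantile scaling. Under quantile scaling, centring per chromosome, reads plus 1, loci within 100 kb and without chromosomes 8 and X (chosen after seeing the data) every count stayed within 1.5 times. Counts of dCD-lower regions with H3K27ac or RNA lower in dCD were planned and are not analysed here. No paired analysis was possible because the libraries of a group are in 1 column, and for the same reason no replicate could be left out. Regions with few reads have the least certain differences, and variation between cultures is not seen.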
